A study of Mus musculus with 92 samples.

Results

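Mouse zygotes had been injected with one of 3 microRNAs or with a negative control, and the comparison described here sets all embryos that received a microRNA, whichever it was, against those that received the negative control. The measurements are Smart-seq2 profiles of single blastomeres (the cells of the cleaving embryo) at the 8-cell stage, from C57BL/6N embryos of wild-type genotype. Titles of the analysed samples carry the mark IVF (in vitro fertilisation) in all groups. The labels name the injected material as Let7d, Let7e, mi699a-5p or NC (negative control), and they do not say what the NC material is. Reads of all cells with the same mouse id in the labels were added up, so that a mouse id is the replicate: 11 mouse ids with 59 cells received a microRNA (3 Let7d, 4 Let7e and 4 mi699a-5p) and 3 mouse ids with 22 cells received NC. These 14 mouse ids and 81 cells are all those analysed in the series, and 10 further labelled cells were not analysed here. What a mouse id stands for (one embryo or one parent) is not stated in the labels, and p-values measure only the spread between mouse ids.

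A microRNA is a short RNA that guides Argonaute proteins to messenger RNAs, mostly through pairing of its seed (bases 2 to 8 of the mature strand) with sites in the 3′ untranslated region, after which the messenger is repressed or degraded. Let-7 microRNAs accumulate as cells differentiate, and Hmga2, a chromatin architectural protein, is a textbook let-7 target. In the mouse the maternal transcripts are replaced by embryonic transcription from the 2-cell stage on, so that 8-cell blastomeres run on their own transcripts. Genes that lie on the same side of NC after each of the 3 microRNAs can stem from injected microRNA in general or from the NC libraries. No uninjected embryos were analysed here, so the design cannot tell these apart.

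Sequences of reference let-7 strands are shown because the groups pooled here are labelled with different microRNAs. The labels Let7d and Let7e name neither a strand nor a sequence, so it is assumed here that these strands were injected. The mature strands were read from RefSeq on GRCm38.p6 and are written 5′ to 3′ with the seed in capitals.
mmu-let-7d-5p (chr13:48536078-48536099, minus strand): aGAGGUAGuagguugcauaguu
mmu-let-7e-5p (chr17:17830366-17830387, plus strand): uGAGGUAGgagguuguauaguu
Both are 22 bases long and share the seed GAGGUAG. They differ at 3 positions counted from the 5′ end, written with the let-7d base first, A1U, U9G and C16U. No entry was matched for mi699a-5p, which is named only. One material in the pool therefore has no let-7 sequence shown here.

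The summed libraries held 6329464 to 24037593 reads from 2 to 8 cells. Let7e replicate 3, with 2 cells, stood apart from the rest, with a mean correlation of 0.748 with the other mouse ids against 0.816 to 0.856 for the remaining 13. Of 20 blastomere markers 18 were measured, and their summed level was 14900 to 18700 CPM (read counts scaled to a common library total and by TMM factors) in NC and 15100 to 21700 CPM in the microRNA groups. Only 2 of 27 cumulus and granulosa markers, 1 of 19 blood, skin and stromal markers and 1 of 14 sperm transcripts were among the 7886 genes of the table. The deposited counts are named as taken after a CPM filter. A missing marker may have failed that filter, so these counts do not show that other cell types were absent.

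No gene separated injected microRNA from NC at the threshold of the main test. EdgeR's quasi-likelihood test called 0 of 7886 genes (0%) at an adjusted p of 0.05, and the lowest adjusted p was 0.501. At an unadjusted p of 0.05 it listed 217 genes higher (2.75%) and 95 lower (1.2%). Together these were 312 genes (3.96%), fewer than a threshold of 0.05 would list with no difference between the groups. DESeq2 on the same sums called 8 genes (0.101%), of which Xpo1, Tug1, Gfm1, Lin7c, Myo5b, Prkacb and Drd3 were higher and ENSMUSG00000118642.1 was lower. The DESeq2 adjusted p of these ran from 0.000108 for Myo5b to 0.028 for Prkacb and Drd3. Scaling by total counts moved the unadjusted split from 217 and 95 to 261 and 59, and limma on mean log2 CPM over cells gave 236 and 73. The genes named below are therefore described by their values, and none of them is called changed by the main test. What made DESeq2 call genes that edgeR did not call was not tested.

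Agreement in side was common. With one estimate per microRNA group, 2107 genes (26.7%) lay above NC in all 3 groups and 1755 (22.3%) lay below it in all 3. These contrasts share the same 3 NC mouse ids, so agreement among them is not independent and is frequent even with no effect. The share to be met with no effect was not computed, so these shares alone do not show an effect. A stricter description asks that no mouse id overlaps. In 40 genes (0.507%) each of the 11 microRNA values exceeded all 3 NC values, and in 22 genes (0.279%) each was under all 3. Without NC replicate 1, 2 or 3 these counts were 76, 129 and 112 above, and 70, 112 and 69 below. For a gene with no difference, 1 of the 364 arrangements of the labels puts all 11 above NC, and 1 puts all 11 below. That is a share of 0.00275 in each direction, so lack of overlap alone does not mark a gene as changed.

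Xpo1, the exportin that carries cargo with leucine-rich export signals out of the nucleus, led the genes higher after microRNA. The gene lies on chromosome 11 (chr11:23256041-23298249, GRCm38). NC replicates 1 to 3 had 445, 574 and 616 CPM. The microRNA mouse ids ran from 737 to 1290 CPM with a median of 993, so the groups did not overlap. The means were 545 ± 89.1 CPM (SD, n = 3) and 990 ± 166 CPM (SD, n = 11), a log2 fold change of 0.86 ± 0.18 (SE, edgeR). The 3 microRNA groups lay close together, at 0.86 for Let7d, 0.78 for Let7e and 0.94 for mi699a-5p.

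Tug1 (chr11:3639785-3649673), a long noncoding RNA annotated as antisense, had 247, 168 and 205 CPM in NC and 278 to 643 CPM after microRNA (median 435). Its log2 fold change was 1.09 ± 0.25, and the groups did not overlap. Whether counting used the strand is not given in the sources used here, so reads of Tug1 and of a partner on the other strand cannot be told apart. Gfm1 (chr3:67430096-67476529), the mitochondrial translation elongation factor G1, had 38.9, 60.1 and 77.4 CPM in NC and 71.3 to 186 CPM after microRNA (median 132). Let7e replicate 4 was the only microRNA mouse id within its NC range, and the log2 fold change was 1.19 ± 0.27. Lin7c (chr2:109890853-109901003), a PDZ scaffold protein, had 110, 128 and 120 CPM in NC and 152 to 314 CPM after microRNA (median 234), a log2 fold change of 0.91 ± 0.21 without overlap.

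Prkacb (chr3:146729574-146812990), a catalytic subunit of protein kinase A, had 11.8, 19.5 and 17.9 CPM in NC against 27.6 to 67.1 CPM (median 39.2). The gap between the groups was 0.50 on the log2 CPM scale, and the log2 fold change was 1.32 ± 0.33. Prkag1, a regulatory subunit of AMP-activated kinase, also had a clear gap (0.30), with 23, 20.2 and 22.8 CPM in NC and 28.4 to 54.3 CPM after microRNA. Prkag1 was chosen after its values were seen.

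A pair of the leading genes had few reads in NC. Myo5b, a myosin motor of membrane traffic on chromosome 18, had 0.143, 0.091 and 0.729 CPM in NC, where 14 reads were counted in all. After microRNA it ran from 0 to 19.7 CPM (median 9.21) with 1801 reads. It was detected in 5 of 22 NC cells and in 29 of 59 microRNA cells. Let7e replicate 3 had none, and the other 10 microRNA mouse ids exceeded every NC value. Its log2 fold change of 5.12 ± 1.25 was 1.74 when mean log2 CPM over cells was used. Drd3, the dopamine D3 receptor, had 3.81, 2.69 and 1.86 CPM in NC and 4.08 to 31.1 CPM after microRNA (median 16.1), from 162 and 2506 reads, and its groups did not overlap.

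**Figure D1:**
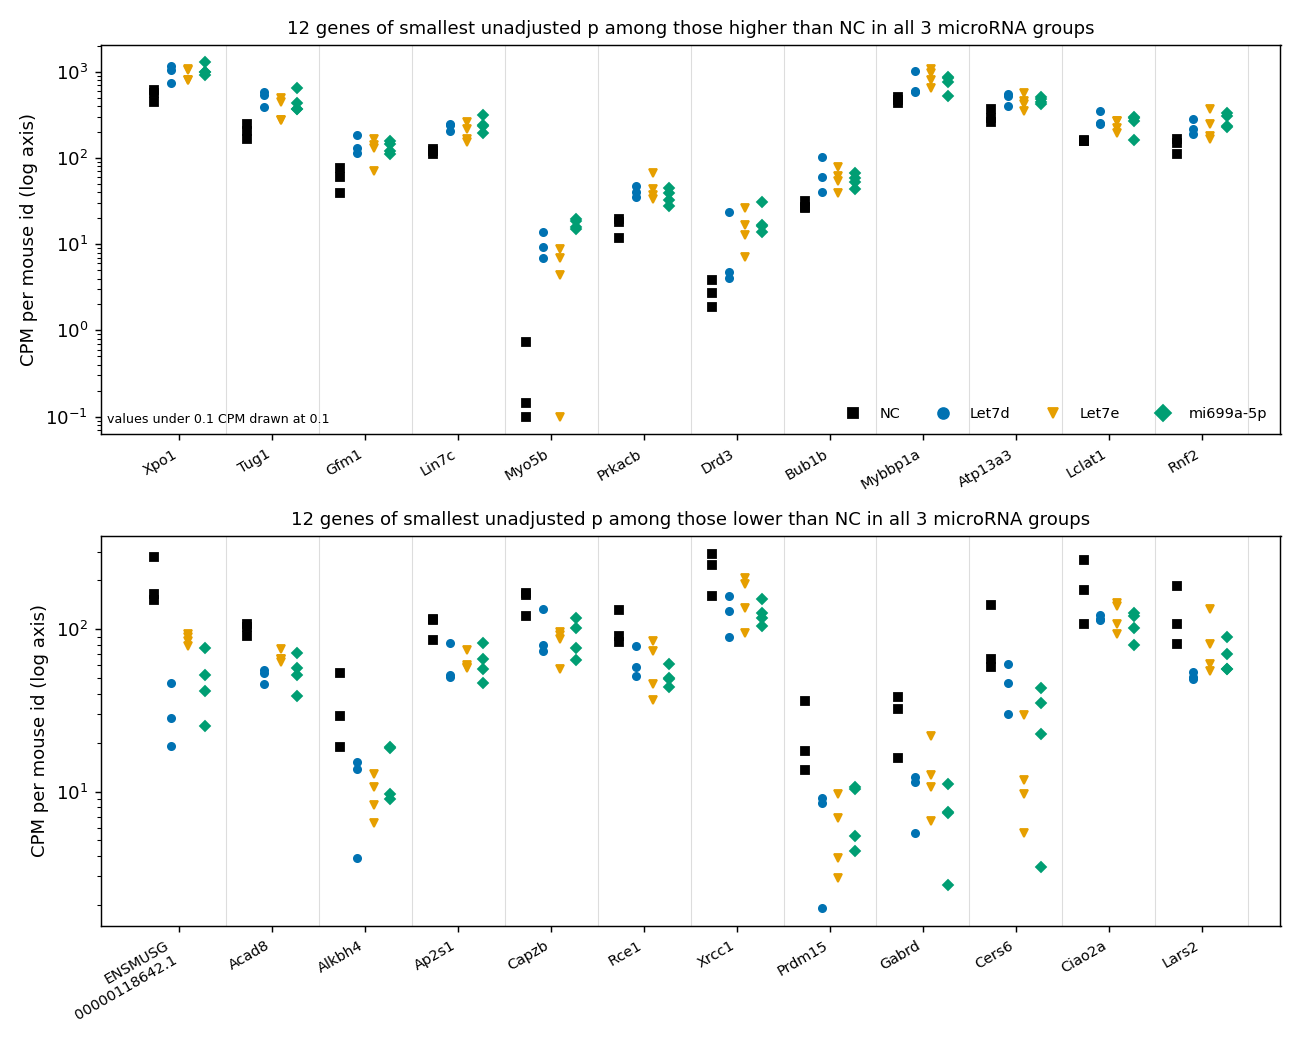
CPM per mouse id on a log axis for the 12 genes of smallest unadjusted p in each direction among genes on the same side of NC in all 3 microRNA groups (black squares NC, blue circles Let7d, orange triangles Let7e, green diamonds mi699a-5p). Xpo1 lies at 445 to 616 CPM in NC and at 737 to 1290 CPM in the 11 microRNA mouse ids, while Ciao2a and Lars2 overlap.

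The other leading genes higher after microRNA were Bub1b, Mybbp1a, Atp13a3, Lclat1 and Rnf2. Bub1b, a kinase-like protein of the spindle checkpoint, had 26.5 to 32 CPM in NC and 38.9 to 103 CPM after microRNA (median 59.1). Mybbp1a, a nucleolar Myb-binding protein, had 441 to 512 CPM against 518 to 1090 CPM. Lclat1, an acyltransferase acting on lysocardiolipin, was nearly constant in NC (157 to 160 CPM) and reached 164 to 352 CPM. Rnf2, an E3 ligase of the Polycomb repressive complex that ubiquitinates histone H2A, met the NC range at its edge, since 165 CPM was both its highest NC and its lowest microRNA value as rounded. Atp13a3, a transmembrane ATPase, had 265 to 367 CPM in NC and 347 to 573 CPM after microRNA, with 10 of 11 mouse ids above NC.

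Among genes lower after microRNA, the one with the smallest p carries the identifier ENSMUSG00000118642.1 and was not matched in GENCODE M21, so it has no symbol or position here. NC replicates 1 to 3 had 164, 151 and 277 CPM. The microRNA mouse ids ran from 19.1 to 92.7 CPM (median 52.2), and none reached the NC range. The log2 fold change was -1.78 ± 0.36, with -2.65 for Let7d, -1.19 for Let7e and -2.02 for mi699a-5p. The Let7d mouse ids had 28.4, 46.5 and 19.1 CPM, the Let7e mouse ids 78.5 to 92.7 CPM and the mi699a-5p mouse ids 25.3 to 76.2 CPM. In the fit of 4 groups the mean of the 3 microRNA groups against NC called this gene alone, at a log2 fold change of -1.96 (edgeR adjusted p = 0.0101). DESeq2 gave ENSMUSG00000118642.1 an adjusted p of 0.0148. The main two-group fit did not call it (edgeR adjusted p = 0.501). Without the Let7e group, where its estimate was smallest in size, the two-group fit called it at -2.26 (edgeR adjusted p = 0.0405). The remaining settings did not call it.

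Acad8 (chr9:26974135-26999566), the isobutyryl-CoA dehydrogenase of valine breakdown, had 90.5, 103 and 107 CPM in NC and 38.6 to 75 CPM after microRNA (median 57.4). Its log2 fold change was -0.78 ± 0.22, and the groups did not overlap. Ap2s1, the small subunit of the AP2 clathrin adaptor, had 113, 85.2 and 116 CPM in NC and 46.6 to 82.6 CPM after microRNA, again without overlap. Prdm15, a zinc finger transcription factor, had 13.6, 17.7 and 36 CPM against 1.92 to 10.7 CPM. Prdm15 was detected in 15 of 22 NC cells and in 34 of 59 microRNA cells.

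Alkbh4, a dioxygenase of the AlkB family, had 29.1, 18.9 and 54 CPM in NC and 3.92 to 18.8 CPM after microRNA. Its highest microRNA value and its lowest NC value were 18.8 and 18.9 CPM, so the separation is narrow. Phlda3, a p53-induced repressor of Akt, had 45.2, 58.6 and 46.7 CPM in NC and 0.47 to 37.8 CPM after microRNA. In the remaining leading lower genes at least 1 mouse id overlapped. Capzb (actin capping), Rce1 (a protease of prenylated proteins), Gabrd (a GABA receptor subunit) and Cers6 (a ceramide synthase) had 10 of 11 microRNA mouse ids below every NC value. Xrcc1 (single-strand break repair) and Lars2 (the mitochondrial leucyl-tRNA synthetase) had 8, and Ciao2a (iron-sulfur protein assembly) had 3.

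**Figure D2:**
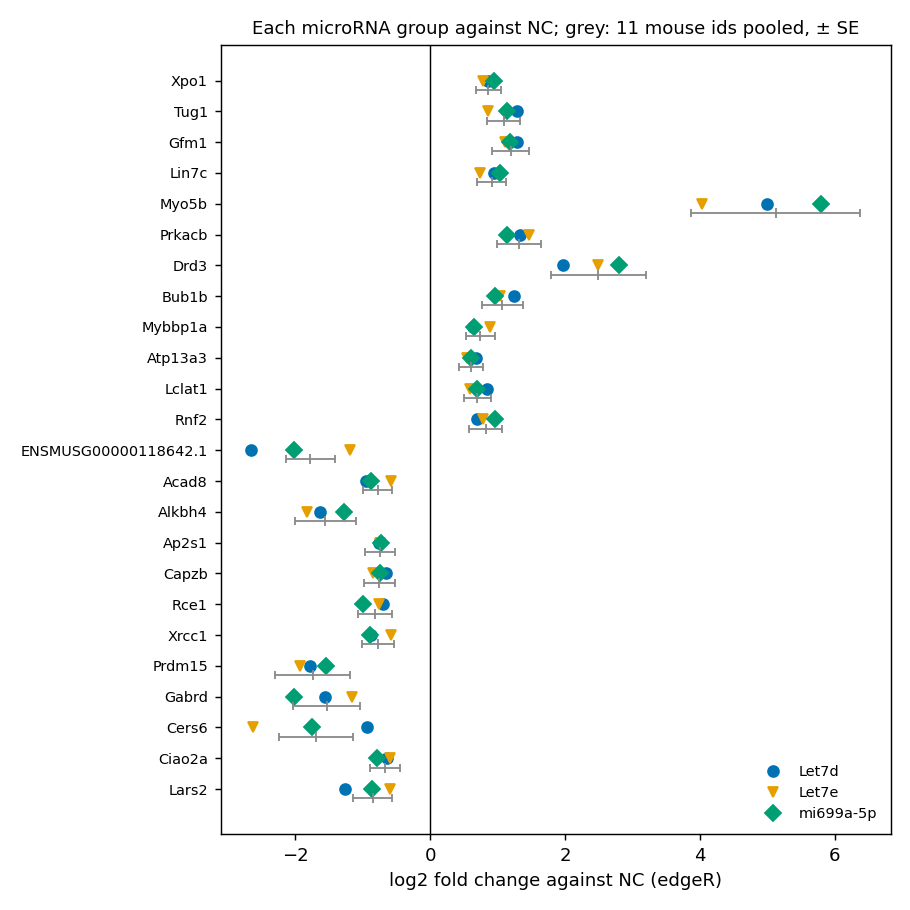
Log2 fold change of each microRNA group against the 3 NC mouse ids for the same 24 genes (coloured points, edgeR fit of 4 groups), with the pooled estimate of 11 mouse ids and its standard error in grey. Xpo1 lies between 0.78 and 0.94 in the 3 groups, whereas ENSMUSG00000118642.1 spreads from -2.65 to -1.19 and Cers6 from -2.63 to -0.93.

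Taken group by group in the fit of 4 groups, edgeR called 1 gene in Let7d against NC (0.0127%), and it was ENSMUSG00000118642.1 (log2 fold change -2.65 ± 0.40, adjusted p = 0.0287). It called 0 genes in Let7e against NC and 0 in mi699a-5p against NC, with 317 (4.02%) and 434 (5.5%) at an unadjusted p of 0.05, beside 370 (4.69%) for Let7d. Among the 3 microRNA groups themselves 0 genes differed, with 482 (6.11%) at an unadjusted p of 0.05 and a lowest adjusted p of 0.652.

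Singling out each group in turn placed NC beside the other groups. NC against the other 3 groups gave 62 genes without overlap (0.786%), 40 with NC below and 22 with NC above. Let7d, also with 3 mouse ids, gave 53 (0.672%), 29 below and 24 above. With 4 mouse ids each, Let7e gave 21 (0.266%) and mi699a-5p 40 (0.507%). At an unadjusted p of 0.05 edgeR listed 312 genes for NC (3.96%), 361 for Let7d (4.58%), 401 for Let7e (5.08%) and 541 for mi699a-5p (6.86%), and each comparison had 0 called genes. By the unadjusted count NC was the lowest of the 4. Groups of 3 mouse ids allow more genes without overlap than groups of 4 by construction. The count without overlap therefore sets NC (62) beside Let7d (53) only. Whether NC differs from the other groups in these counts was not tested.

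**Figure D3:**
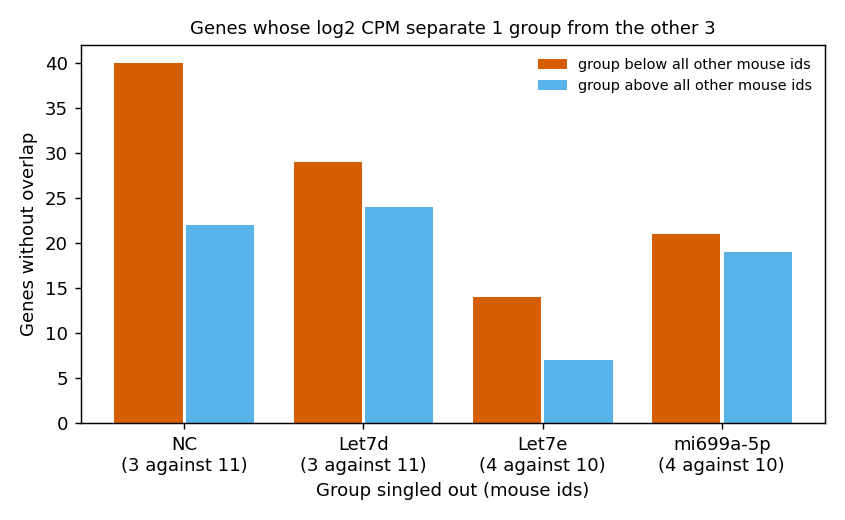
Number of genes whose log2 CPM separates all mouse ids of 1 group from all mouse ids of the other 3, with the group below the rest in orange and above the rest in blue. NC stands at 40 and 22 genes, Let7d at 29 and 24, Let7e at 14 and 7, and mi699a-5p at 21 and 19.

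Genes of the cell cycle were described by their 2 lists. Of 44 G2/M genes 32 had a pooled estimate above NC, as had 4322 of all 7886 genes. In all 3 groups 20 were higher (45.5%, against 26.7% of all genes) and 6 were lower (13.6%, against 22.3%). At an unadjusted p of 0.05 edgeR listed 9 of them higher (against 2.75% of all genes) and 0 lower (against 1.2%), and none was called. The median log2 fold change was 0.16, against 0.04 over all genes. Mki67, a proliferation marker, had 63.9, 32.3 and 38.8 CPM in NC and 47.6 to 135 CPM after microRNA (median 102), with 9 of 11 mouse ids above NC. Prc1, which bundles microtubules of the central spindle, had 188, 202 and 225 CPM in NC and 164 to 475 CPM after microRNA (median 372). Its only microRNA value below the NC range was 164 CPM, in Let7e replicate 1. Cenpa, the centromeric histone, was on the other side in all 3 groups, with a log2 fold change of -0.53 ± 0.28.

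Of 48 S phase and replication genes 18 were higher in all 3 groups (37.5%, against 26.7% of all genes) and 8 were lower (16.7%, against 22.3%), with a median of 0.04, the same as over all genes. Pold1, the catalytic subunit of DNA polymerase delta, had 23.9, 16.6 and 23.7 CPM in NC and 26.8 to 74.6 CPM after microRNA. Mcm2, a subunit of the replicative helicase, had 159, 176 and 188 CPM against 196 to 305 CPM. Neither overlapped. Rrm1, the large subunit of ribonucleotide reductase, had 156 to 192 CPM in NC and 185 to 363 CPM after microRNA, with 9 of 11 mouse ids above NC.

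Xpo1 belongs to a list of nuclear export and import genes. Of 32 measured members 12 were higher in all 3 groups (37.5%, against 26.7% of all genes) and 4 were lower (12.5%, against 22.3%). At an unadjusted p of 0.05 edgeR listed 4 of them higher, against 2.75% of all genes, and 2 without NC replicate 1. Cse1l, the exporter of importin alpha, had 189, 190 and 224 CPM in NC and 207 to 445 CPM after microRNA (median 342). Ipo5, an importin, had 860, 806 and 973 CPM against 906 to 1520 CPM (median 1180). Both ranges overlapped NC at their lower end, in 1 mouse id for Cse1l and 2 for Ipo5.

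Of 25 measured genes of the p53 response 18 had a pooled estimate below NC. Among them 11 were lower in all 3 groups (44%, against 22.3% of all genes), and 1 gene of the list was higher in all 3 (4%, against 26.7%). At an unadjusted p of 0.05 edgeR listed 2 lower (against 1.2% of all genes), or 0 without NC replicate 2. Phlda3, described above, and Perp, a desmosomal p53 target with 76.9, 93.5 and 122 CPM in NC and 24.7 to 92.1 CPM after microRNA, were those 2. Mdm2, the ligase that degrades p53, had a log2 fold change of -0.47 ± 0.26. The list median was -0.23, and it was -0.68 for Let7d, -0.29 for Let7e and -0.02 for mi699a-5p. Leaving out NC replicates 1, 2 and 3 in turn gave 0.03, -0.42 and -0.50. A covariate for Y-linked reads gave -0.03, and a covariate for the ribosomal RNA share gave 0.00, and the part of these measures in the list median was not tested.

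MicroRNA processing and silencing genes were divided. Of 36 measured, 12 were higher in all 3 groups (33.3%, against 26.7% of all genes) and 6 lower (16.7%, against 22.3%). Tarbp2, the double-stranded RNA binding partner of Dicer, had 100, 90.4 and 104 CPM in NC and 31.7 to 78.7 CPM after microRNA (median 61.9), so no mouse id overlapped. Edc4, a scaffold of mRNA decapping, had 48, 47.9 and 50.9 CPM in NC and 50.3 to 108 CPM after microRNA. Tut7, which uridylates let-7 precursors, had 37.8, 40.4 and 35.9 CPM against 27.8 to 85.3 CPM, with 10 of 11 mouse ids above NC.

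Let-7 targets are a list that concerns only the let-7 groups of the pool. Of 35 measured, 11 were lower in all 3 groups (31.4%, against 22.3% of all genes) and 4 higher (11.4%, against 26.7%). Their median log2 fold change was 0.06 for Let7d, -0.27 for Let7e and -0.06 for mi699a-5p. Hmga2 had 204, 221 and 275 CPM in NC and 78.1 to 249 CPM after microRNA (median 156), with 10 of 11 mouse ids below NC and a log2 fold change of -0.58 ± 0.26. It was -0.53 for Let7d, -0.88 for Let7e and -0.36 for mi699a-5p. Rrm2, the small subunit of ribonucleotide reductase and a listed target, was on the other side, at 0.44 ± 0.20.

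Matches to the shared let-7 seed were searched as CTACCTC on the transcript strand of 3′ untranslated regions, in the transcript with the longest coding sequence in GENCODE M21. Of 7485 genes with such a region 714 held at least 1 match (9.54%). Of the genes higher in all 3 groups 187 of 2001 with a region held a match (9.35%). Of those lower in all 3, 140 of 1675 did (8.36%). The sets without overlap are small. Of the 36 genes with a region among those with all microRNA mouse ids above NC, 1 held a match (2.78%), and of 21 below NC, 4 did (19%). Over all genes with a match the median log2 fold change was 0.03 for Let7d, 0.00 for Let7e and 0.07 for mi699a-5p, against 0.01, 0.02 and 0.04 without a match. The matches in the 5 named genes that hold one are shown with the match in capitals, for Hmga2 the first of 4, so that genes on both sides of NC are seen.
Hmga2, first match (chr10:120364225-120364231, minus strand): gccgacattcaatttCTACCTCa
Alkbh4, first match (chr5:136140960-136140966, plus strand): ggactcttgccttttCTACCTCc
Alkbh4, second match (chr5:136141093-136141099, plus strand): cggatcctcctgcctCTACCTCt
Tarbp2 (chr15:102523444-102523450, plus strand): ccagaggtgccatctCTACCTCt
Lars2 (chr9:123462237-123462243, plus strand): ggccctggctctgtgCTACCTCc
Rrm2 (chr12:24713362-24713368, plus strand): taaaaagctgtgtagCTACCTCa
Hmga2, Alkbh4, Tarbp2 and Lars2 were lower in all 3 groups and Rrm2 was higher. Alkbh4 and Tarbp2 had no overlap with NC, while the others did. A match is a description of the letters, set against the seed of the reference strands, and not a measured site. Alkbh4 and Tarbp2 were also lower in the mi699a-5p group, at -1.28 and -0.87, beside -1.63 and -1.02 for Let7d and -1.82 and -0.45 for Let7e.

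Early genome activation genes and interferon genes were sparsely measured. Of 34 listed early activation genes only 7 were in the table. All 7 had a pooled estimate above 0, as had 4322 of all 7886 genes, and 4 were higher in all 3 groups (57.1%, against 26.7% of all genes). Their median was 0.35, or 0.65 without NC replicate 1. Tdpoz1, a 2-cell stage gene of a family of near-identical copies whose reads may be split between them, had 12.8, 20.7 and 7.53 CPM in NC and 7.84 to 73.4 CPM after microRNA. Obox6, an oocyte homeobox gene, had a log2 fold change of 0.31 ± 0.21. Of 38 listed genes of the interferon and double-stranded RNA response only 7 were in the table. Listed genes that are missing may have failed the CPM filter applied before deposit. In all 3 groups 2 were higher (28.6%, against 26.7% of all genes) and 1 was lower (14.3%, against 22.3%). None had an unadjusted p under 0.05. Omt2b, an oocyte gene of the maternal list, had 12.6, 12.7 and 6.32 CPM in NC and 15 to 51.9 CPM after microRNA, without overlap.

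**Figure D4:**
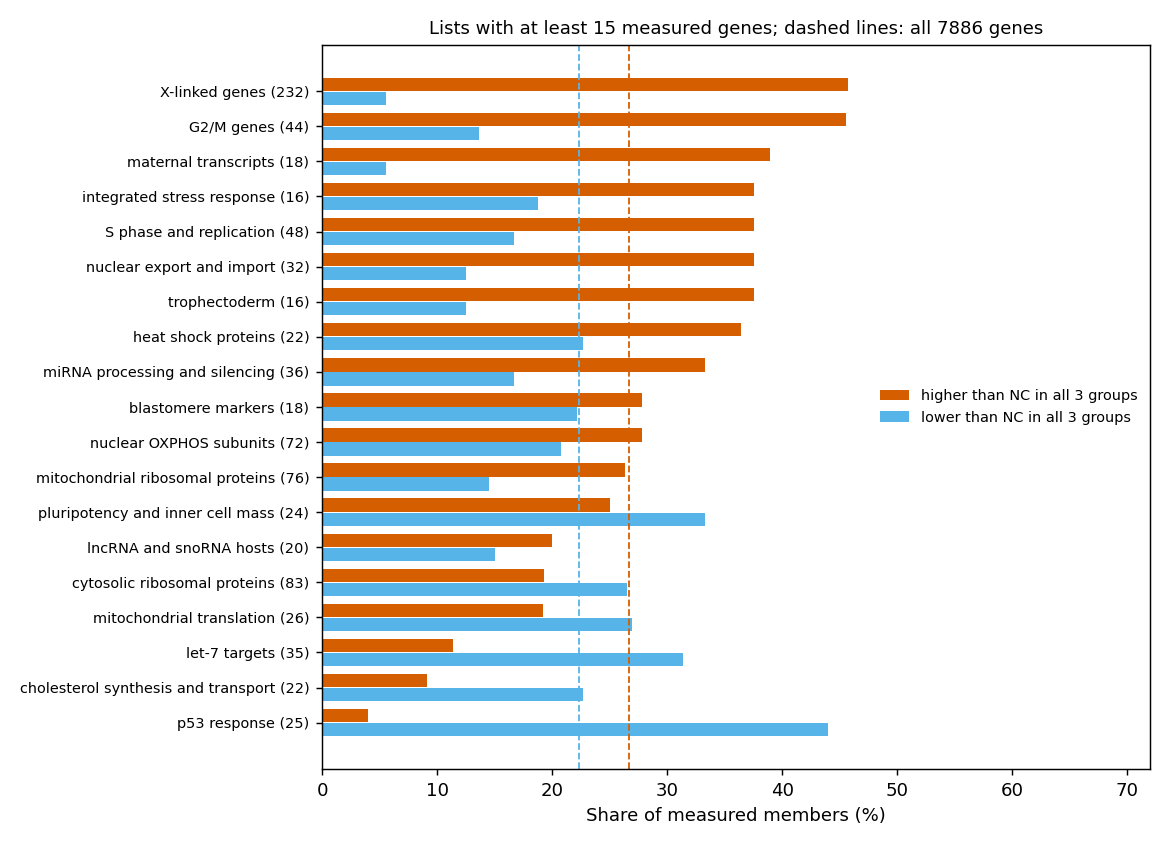
Share of measured members higher (orange) or lower (blue) than NC in all 3 microRNA groups, for lists with at least 15 measured genes (number in brackets); dashed lines give the shares over all genes, 26.7% and 22.3%. X-linked genes (45.7% higher, 5.6% lower) and G2/M genes (45.5% higher) lie farthest above the orange line, and the p53 list reaches 44% lower.

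The list counts rest on the same 3 NC mouse ids as the gene counts. Without NC replicate 2 the G2/M median was 0.33, and without NC replicate 1 the median of the let-7 targets was 0.07 in place of -0.05. The G2/M genes with an unadjusted p under 0.05 numbered 4 to 11 on the higher side over the alternative settings, 4 of them without NC replicate 1. Covariates for Y-linked reads and for the ribosomal RNA share gave 6 and 5.

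The remaining lists held few genes with an unadjusted p under 0.05. Mitochondrial translation had 5 of 26 genes higher (19.2%, against 26.7% of all genes) and 7 lower (26.9%, against 22.3%) in all 3 groups. Gfm1 was on the higher side. On the lower side were Lars2 and Cars2, a mitochondrial cysteinyl-tRNA synthetase (57.9, 94.1 and 80.3 CPM in NC, 24.7 to 67.8 CPM after microRNA). Of the cholesterol list Stard4, a sterol carrier, was at a log2 fold change of -1.13 ± 0.44, with overlap between the groups. Of the trophectoderm list Dab2, an endocytic adaptor, was at 0.89 ± 0.36 and Lrp2, an endocytic receptor, at 1.39 ± 0.60, while the list median was -0.11. That median was 0.41 without NC replicate 2 and -0.38 without NC replicate 3. Lrp2 was 0.84 with the covariate for Y-linked reads and 0.77 with that for the ribosomal RNA share.

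Over all genes 26.7% were higher and 22.3% lower in all 3 groups. Pluripotency and inner cell mass genes had 6 of 24 higher (25%) and 8 lower (33.3%) in all 3 groups, with a median of 0.02. Heat shock proteins had 8 of 22 higher (36.4%) and 5 lower (22.7%), and Dnajb1, a co-chaperone of Hsp70, was at -0.64 ± 0.27. The integrated stress response had 6 of 16 higher (37.5%) and 3 lower (18.8%), with no gene at an unadjusted p under 0.05. Of 83 cytosolic ribosomal protein genes 16 were higher (19.3%) and 22 lower (26.5%) in all 3 groups. Of 76 mitochondrial ribosomal protein genes 20 were higher (26.3%) and 11 lower (14.5%). Of 72 nuclear subunits of oxidative phosphorylation 20 were higher (27.8%) and 15 lower (20.8%). The medians of these 3 lists were 0.01, 0.05 and 0.08, and none of their genes had an unadjusted p under 0.05. The 7 mitochondrially encoded subunits had a median of -0.15, with -0.75 for Let7d, 0.11 for Let7e and -0.05 for mi699a-5p.

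Some further genes without overlap, outside the lists, are given by their values only. They were chosen after their values were seen, and no function was tested over them. Ints4, a subunit of the Integrator complex, had 88.3, 85.3 and 83.4 CPM in NC and 95.5 to 182 CPM after microRNA (median 157). Cpsf1 and Pcf11, factors of 3′ end cleavage, had 42.2 to 62.6 CPM against 65.8 to 185 CPM, and 23.5 to 34.2 CPM against 35.6 to 75.5 CPM. Supt5, a transcription elongation factor, had 145, 245 and 236 CPM in NC and 260 to 342 CPM after microRNA. On the lower side Smarca5, the ATPase of ISWI chromatin remodelers, had 222, 219 and 267 CPM in NC and 138 to 212 CPM after microRNA.

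The same-side genes were also described by their transcripts. The median length of the representative transcript was 3298 bases for genes higher in all 3 groups, 2454 bases for genes lower in all 3 and 2884 bases over all 7878 genes with a transcript. For the 40 and 21 genes without overlap that had one, the medians were 3734 and 2871 bases. GC content went the other way, with medians of 48.3% for the higher, 50.5% for the lower and 49.6% for all genes. Across genes the rank correlation (Spearman) of the pooled log2 fold change with length was 0.139 and with GC content -0.105. Genes are not independent replicates, and these are descriptions of the same 14 mouse ids.

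X-linked genes lay on the higher side by their median. Of 232 measured 106 were higher in all 3 groups (45.7%) and 13 lower (5.6%), and their median log2 fold change was 0.29, against 0.04 over all genes. It was 0.47 for Let7d, 0.05 for Let7e and 0.38 for mi699a-5p, against 0.011, 0.019 and 0.045 over all genes. Mean Xist was 35.6 ± 60.2 CPM (SD, n = 3) in NC and 174 ± 205 CPM (SD, n = 11) after microRNA (two-sided exact permutation p = 0.354), and summed Y-linked genes were at 141 ± 66.4 and 95.4 ± 81.3 CPM (exact permutation p = 0.385), each with an adjusted p of 0.677. In NC, replicate 2 had 105 CPM of Xist, the RNA of the inactive X, and replicates 1 and 3 had 0 and 1.62 CPM. Xist was 389 and 514 CPM in Let7d replicates 2 and 3, 368 CPM in Let7e replicate 1, and 315 and 319 CPM in mi699a-5p replicates 1 and 4, and at most 5.23 CPM in the other 6 microRNA mouse ids. Mean log2 CPM of X-linked genes relative to the other genes was -0.66, -0.04 and -0.71 in NC replicates 1 to 3. It was 0.13 to 0.33 in the 5 microRNA mouse ids named for Xist and -0.85 to -0.22 in the other 6.

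A covariate for Y-linked reads brought the X-linked median to 0.05, and leaving out NC replicate 2 brought it to 0.51. Under that covariate the leading autosomal gene Xpo1 was 0.83, Tug1 1.02, Acad8 -0.71 and ENSMUSG00000118642.1 -1.55. The X-linked translation initiation factor Eif2s3x was among the 40 genes without overlap on the higher side, with 27 to 35.4 CPM in NC and 37.1 to 81.4 CPM after microRNA.

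Ribosomal RNA took a larger mean share of the NC libraries. Its 3 rows, the nuclear repeat unit CT010467.1 and the mitochondrial mt-Rnr1 and mt-Rnr2, took 14.7%, 9.24% and 15.9% of reads in NC replicates 1 to 3 and 3.68% to 14% after microRNA (median 8.69%). The means were 13.3% ± 3.55 (SD, n = 3) and 8.41% ± 3.09 (SD, n = 11), with p = 0.0275 in a two-sided exact permutation test and 0.22 after Benjamini-Hochberg adjustment over 8 library measures. The smallest p the design allows is 0.00275. Without NC replicate 1 or 3 the exact permutation p was 0.103 or 0.154, and without Let7d replicate 2 or Let7e replicate 2 it was 0.0524. CT010467.1, which stands for a repeated gene and so collects reads of many copies, had a log2 fold change of -0.76 ± 0.32.

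The share of reads on the 50 most abundant genes was 27.0% ± 3.91 in NC and 22.6% ± 3.06 after microRNA (exact permutation p = 0.0549, adjusted 0.22, n = 3 and 11). Reads per cell (2526101 in NC and 2824384 after microRNA) had an exact permutation p of 0.423. With the ribosomal RNA share as a covariate 0 genes were called, and the lowest adjusted p was 1 (edgeR). Xpo1 was then 0.76, Gfm1 1.08, Lin7c 0.84, Acad8 -0.78 and ENSMUSG00000118642.1 -1.49. Lars2 went from -0.85 to -0.40, and it was not alone. Ap2s1 went from -0.74 to -0.49, Mybbp1a from 0.74 to 0.54 and Stard4 from -1.13 to -0.72. Some named genes had larger estimates instead, such as Gabrd (-1.53 to -2.02) and Dnajb1 (-0.64 to -0.87).

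**Figure D5:**
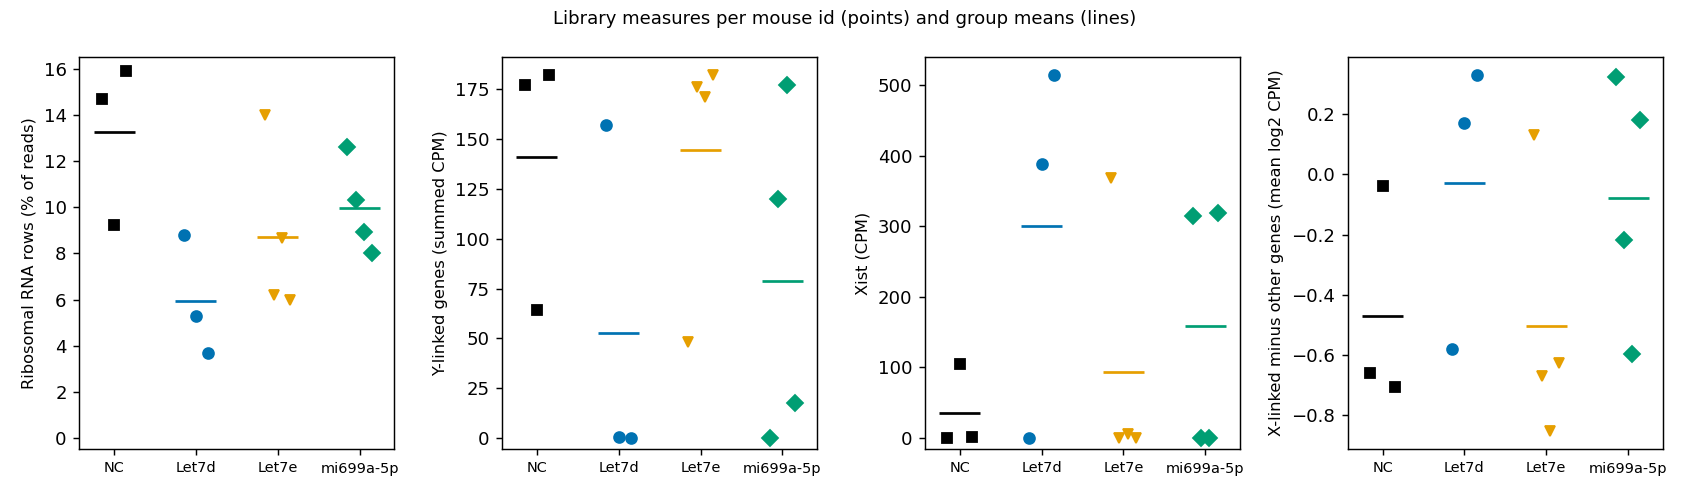
Share of reads on ribosomal RNA rows, summed CPM of 4 Y-linked genes, CPM of Xist, and mean log2 CPM of X-linked genes minus that of other genes, per mouse id (points) with group means (lines). NC replicates 1 and 3 have 14.7% and 15.9% ribosomal RNA reads and X-linked levels of -0.66 and -0.71, and NC replicate 2 lies apart from them in all 4 measures.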

How the data were processed

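Raw read counts per gene and cell were used as the authors deposited them, per the labels and the values (whole numbers whose sums differ, 1138550 to 4950404 reads per column). Their name says that a CPM filter had been applied before deposit, so genes that failed it are missing. Alignment with STAR to GRCm38.p6 is named per the submitters' processing notes, and the counting program is not given in the sources used here. No molecular identifiers are described, so reads include amplification copies. The deposited RPKM table was not used.

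One column pair of Let7d replicate 2 differed by about the sampling noise and was counted as 1 cell. Its chi-square statistic was 1.05 per gene, under the limit of 2 that was set, and the next most alike pair had 28.7. Symbols came from GENCODE M21 (7884 of 7886 identifiers). Counts were summed per mouse id. The 14 sums, grouped by the treatment label, are the replicates.

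The main test was edgeR 4.0.16 (R 4.3.3, TMM, filterByExpr, which removed 0 genes, quasi-likelihood F test, two-sided, Benjamini-Hochberg over all genes) of 11 against 3 mouse ids. A second fit of 4 groups gave each microRNA against NC and the test among the microRNA groups. Log2 CPM used a prior count of 2. DESeq2 1.42.0, limma 3.58.1, other scalings, filters, covariates, thinning to 1575609 reads per cell and leaving out each mouse id or group were alternatives. The ribosomal RNA share as a covariate was added after seeing the data. Scripts were tested on simulated data.

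The comparison and the gene lists were chosen with earlier results of these data known. Named genes are the 12 of smallest p in each direction among same-side genes, up to 3 members per list with an unadjusted p under 0.05, Hmga2, the ribosomal RNA rows and up to 10 genes called by an alternative, and a few genes are not reported here.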

Additional observations from a re-analysis of the deposited data

Results flagged for a closer look

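In the groups of 4 mouse ids (Let7e and mi699a-5p), 49 named genes and 8 library measures were searched for a mouse id far from the other 3, in 114 comparisons. Of these, 4 stood out by Dixon's criterion for the gap to the nearest other value, and chance flags about 1 group in 20.

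Myo5b was at 0 CPM in Let7e replicate 3, the mouse id with 2 cells, and at 4.44 to 8.85 CPM in the other Let7e mouse ids. Mki67 was at 47.6 CPM in Let7e replicate 2 and at 111 to 130 CPM in the others. Let7e replicate 1 stood apart in both sex-linked measures, with 48.1 CPM of Y-linked genes against 171 to 182 CPM, and 368 CPM of Xist against at most 5.23 CPM. It was 1 of 3 mouse ids in the series with over 10 CPM of both Xist and Y-linked genes.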

How the results depend on the processing

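No gene passed the main test, and the count of called genes was 8 with DESeq2, 1 in the fit of 4 groups and 1 without the Let7e group; the cause was not tested. It was 0 under the other settings, those that leave out 1 mouse id included. The count of genes with all microRNA mouse ids above NC went from 40 to 26 after thinning and to 13 with limma over cells, with or without the repeated column as its own cell. The count below NC went from 22 to 12 and 13 in the same limma settings. With single mouse ids left out, the count above ranged from 36 to 129 and the count below from 23 to 112, and fewer NC mouse ids allow more genes without overlap by construction. Directions of the named genes held in all settings except those of CT010467.1 (0.043), mt-Rnr2 (0.004) and mt-Rnr1 (0.076) with the ribosomal RNA share, which they make up, as a covariate. When single mouse ids were left out, the difference in genes per cell (microRNA minus NC) ranged from -88.64 to 31.36 genes and that in the cytosolic ribosomal protein share from -0.06228 to 0.1463 percentage points, so both changed sign. Shared replicate numbers do not pair the mouse ids (19 pairs, r from -0.126 to 0.128, and 4 of 14 mouse ids correlated best with their own number). With the replicate block 0 genes were called (lowest adjusted p = 0.17), as without it, and the median of the 7 early genome activation genes was 0.14 in place of 0.35, that of the trophectoderm list 0.13 in place of -0.11. The precision is limited by the 3 NC mouse ids and a common dispersion of 0.251 between mouse ids.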
